A study of Mus musculus with 31 samples.

Results

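The change in mRNA levels seen with the CLIP deletion was compared between mouse embryonic stem cells (mESCs) that have Ago2 and mESCs that lack it. The 12 RNA-seq libraries of the study, of 31 samples in all, form a square of 4 genotypes, and each gene was given 1 value, the interaction, which is the change with the deletion in cells without Ago2 minus the change with the deletion in cells with Ago2. Of the 15034 genes in the deposited table, the 11287 with a mean of at least 1 TPM (transcripts scaled to a fixed total per library, a level corrected for transcript length) over the 12 libraries were tested. A negative interaction means that the change was lower without Ago2, a positive one that it was higher, and a change that is the same in both backgrounds gives 0. Differences are in means of log2(TPM + 1), which understates changes of genes with low levels. This can also shift the interaction of a gene that is low in 1 background.

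All cells derive from ES-E14TG2a, a long-established mESC line. The 2 WT libraries carry neither deletion. The study lists the lines of all 4 genotypes as cells with a FLAG tag on endogenous Trim71, which the groups thus share. The 2 CLIPΔ libraries come from cells that lack, on both alleles, the stretch of the Ago2 3'UTR to which the RNA-binding protein Trim71 was cross-linked. In the 4 Ago2 KO libraries part of the coding region of Ago2 was removed, and in the 4 Ago2 KO/CLIPΔ libraries both deletions are present. By the methods of the study, edited lines were grown from single sorted cells and so are clones, and CLIPΔ was kept as a pair of independent clones. Which library came from which clone, and how many clones stand behind each Ago2 KO genotype, is not given in the sources used here, so the deletion and the history of a clone cannot be told apart. The labels call the libraries biological replicates and mention no separate cultures, so p-values measure the spread between these libraries, which may be technical. By the text of the study, cells for expression profiling were grown in medium with Lif and the inhibitor pair known as 2i, which holds mESCs in the naive state.

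Ago2 is the Argonaute protein that carries most miRNAs in many mammalian cells: a miRNA loaded in Argonaute pairs through its seed with sites in the 3'UTR of mRNAs, and the silencing complex then lowers their translation and stability. Trim71 is a stem cell protein that binds mRNA hairpins and represses some of its targets, and it is itself a classical target of let-7, the miRNA family that accumulates as stem cells differentiate. The design, both deletions alone and together, asks which mRNA changes seen with the CLIP deletion depend on Ago2.

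The guides that define both deletions are shown because every contrast rests on them, each as its target with the adjacent PAM in capitals. The guide sequences are those of the study, and positions are from a match to GRCm38 (mm10).
CLIP deletion guide 1: cctcacacccacccgcttgcTGG
CLIP deletion guide 2: tctttctatcaagcgccgctCGG
Ago2 knockout guide 1: ggggttccaataccagcggtTGG
Ago2 knockout guide 2: gatccttggttacccgatccTGG
The first pair lies in the 3'UTR part of the last exon, exon 19, of Ago2, a gene on the minus strand of chromosome 15, at chr15:73103583-73103602 on the minus strand and chr15:73103464-73103483 on the plus strand. Cuts at the usual place beside each PAM would remove 105 bp (chr15:73103481-73103585). The study states a slightly longer deleted region and shows an alignment of its sequence in both clones, which was not used here. The only CLIP peak listed in Ago2, chr15:73103539-73103543, lies inside this stretch, and a window of the mRNA around it is shown with the peak in capitals.
Trim71 peak in the Ago2 3'UTR, chr15:73103527-73103556, minus strand: agtgaggagactgCTAGCtccgtgctgtct
The second pair lies in introns, at chr15:73123243-73123262 on the minus strand and chr15:73124083-73124102 on the plus strand, and would remove 854 bp (chr15:73123246-73124099) with exons 10 and 11, 257 bp of exon sequence. These extents are predicted from the guides and were not read from the libraries.

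Ago2 mRNA itself followed the genotypes of the labels. Its level was 28.2 and 21.6 TPM in WT, 27.3 and 20.3 TPM in CLIPΔ, 1.67, 1.85, 1.97, and 2.29 TPM in Ago2 KO, and 1.51, 1.72, 2.88, and 2.60 TPM in Ago2 KO/CLIPΔ. The Ago2 KO groups lay below all WT and CLIPΔ libraries, with no overlap, and KO differed from WT by -3.13 (SE 0.194, adjusted p = 5.34e-06). Its change with the CLIP deletion did not pass in either background, at -0.06 (SE 0.224, adjusted p = 0.949) with Ago2 and 0.09 (SE 0.159, adjusted p = 0.905) without, and the exact two-sided permutation test of 4 against 4 libraries gave p = 0.543, where the smallest possible is 0.0286. TPM was counted over the whole transcript, of which the predicted deletion takes 2 of 19 exons.

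The libraries within a genotype were not equally close to each other. The median SD over genes on the log2 scale was 0.188 in WT, 0.174 in CLIPΔ, 0.0936 in Ago2 KO, and 0.144 in Ago2 KO/CLIPΔ, and in both Ago2 KO genotypes libraries 1 and 2 stood apart from libraries 3 and 4. The median level over genes was 4.07 to 4.15 (log2) in WT and CLIPΔ and 3.65 to 3.83 in the Ago2 KO genotypes, and Mir6236, a locus that takes reads of ribosomal RNA, was at 17606 to 36214 TPM in the former and at 5792 to 8516 TPM in the latter. Each change with the deletion is taken within 1 background. Centring each library on its median gave 84 interactions and quantile normalization 85, beside 73 in the main fit. The part of the other differences in the results was not tested. With only libraries 1 and 2 of the Ago2 KO genotypes, 0 interactions passed by limma and 804 had an unadjusted p under 0.05, and with only libraries 3 and 4, 12 passed, 10 of them among the 73 of the full set described next. All 73 kept their direction in both cases. Both cases reuse libraries from which the 73 were called, among them all of WT and CLIPΔ, so the kept direction is no independent support. Markers of mESCs were present in all 12 libraries, with the lowest of 10 such genes, Esrrb, at 56.4 to 78.1 TPM, and the 4 fibroblast genes in the table summed to 1.65 to 4.08 TPM.

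The change with the deletion differed between the backgrounds in a small share of genes, most of them lower without Ago2. The interaction passed an adjusted p of 0.05 in 73 of 11287 genes (0.647%), of which 62 were lower without Ago2 (0.549%) and 11 were higher (0.0975%), and 904 genes had an unadjusted p under 0.05. With Ago2, 165 genes (1.46%) rose with the deletion and 91 (0.806%) fell. Without Ago2, 31 (0.275%) rose and 68 (0.602%) fell, a split that turned to 43 and 45 when each library was centred on its median. Over all genes tested, the median change was -0.052 with Ago2, -0.045 without Ago2, and 0.0049 for the interaction. With the replicate number of the labels as a block within background, all 73 calls were kept and the counts rose to 329 for the interaction (223 lower, 106 higher), 960 with Ago2 (468 higher, 492 lower), and 758 without Ago2 (245 higher, 513 lower). A term that sets Ago2 KO libraries 1 and 2 against 3 and 4, called the set term here, gave 128, 424, and 301. Leaving out CLIPΔ library 2 gave 144 interactions (103 lower, 41 higher), and over the 12 left-out libraries the changes with Ago2 ranged from 105 to 397 and those without from 21 to 161. With array weights, by which limma weighs each library by its spread, 26 interactions passed (22 lower, 4 higher), all among the 73. The changes were then 37 with Ago2 and 1036 without, so that more passed without Ago2 than with it, unlike in the main fit.

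**Figure D1:**
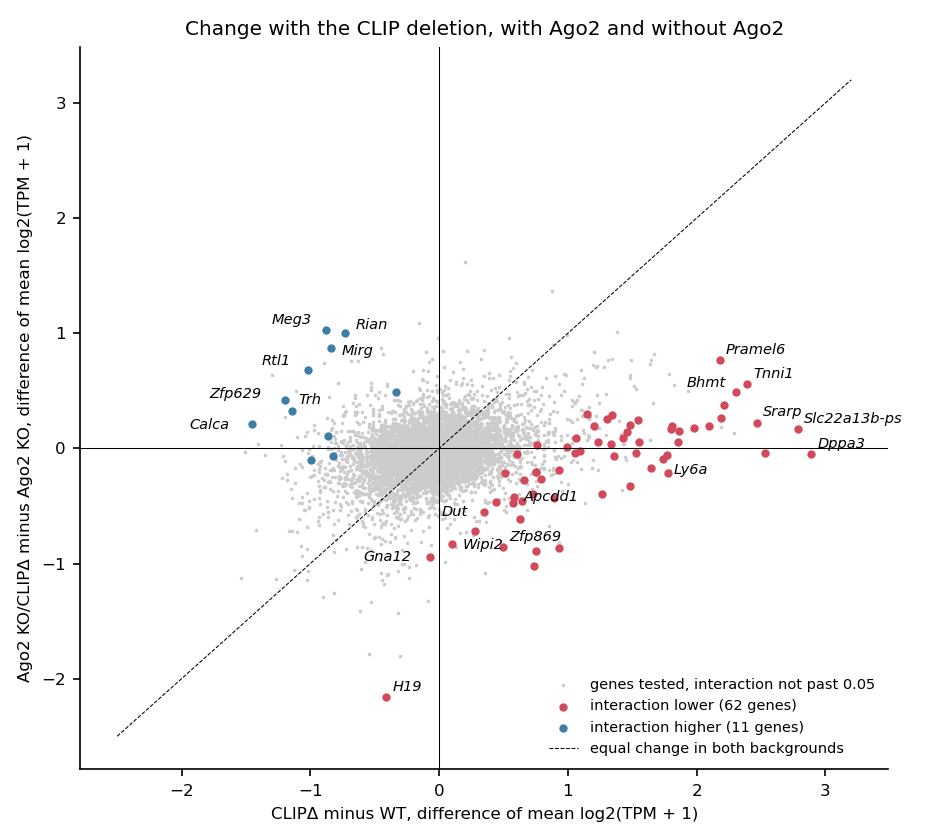
Change with the CLIP deletion in cells with Ago2 (x axis, CLIPΔ minus WT) against cells without Ago2 (y axis, Ago2 KO/CLIPΔ minus Ago2 KO), both as differences of mean log2(TPM + 1), 1 point per gene. Of the 73 coloured genes, the 62 with a lower interaction lie below the dashed line of equal change, most of them far to the right and near 0 on the y axis, and the 11 with a higher interaction lie above it.

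In the main fit, the 73 genes fell mostly into 1 pattern, a rise with the deletion that was seen with Ago2 and not without. With array weights, 36 genes rose and 1 fell with Ago2 over all genes tested, so not all of these classes hold there. Of the 62 lower genes, 49 rose with Ago2: 24 of these had a positive and 21 a negative change without Ago2 that did not pass, 3 rose in both backgrounds, and 1 rose with Ago2 and fell without. A further 9 fell without Ago2 only, and 4 passed in neither background. Their median change was 1.25 with Ago2 and -0.045 without. In 52 of the 62, CLIPΔ had the highest mean of the 4 genotypes.

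Of the 11 higher genes, 7 fell with Ago2 only, 3 rose without Ago2 only, and 1 did both, again in the main fit. Their median change was -0.88 with Ago2 and 0.42 without, and in 10 of the 11 the WT mean was the highest of the 4. The change was larger in size with Ago2 in 60 of the 73 genes and larger without Ago2 in 13. WT and CLIPΔ did not overlap in 70 of the 73 genes and the 2 Ago2 KO genotypes did not overlap in 34. Over all 11287 genes, these counts were 3486 and 1509. The 73 were called from the same values, so their lack of overlap is no independent support. Groups of 2 libraries, as in WT and CLIPΔ, also separate by chance more often than groups of 4, so the 2 counts are not alike.

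**Figure D2:**
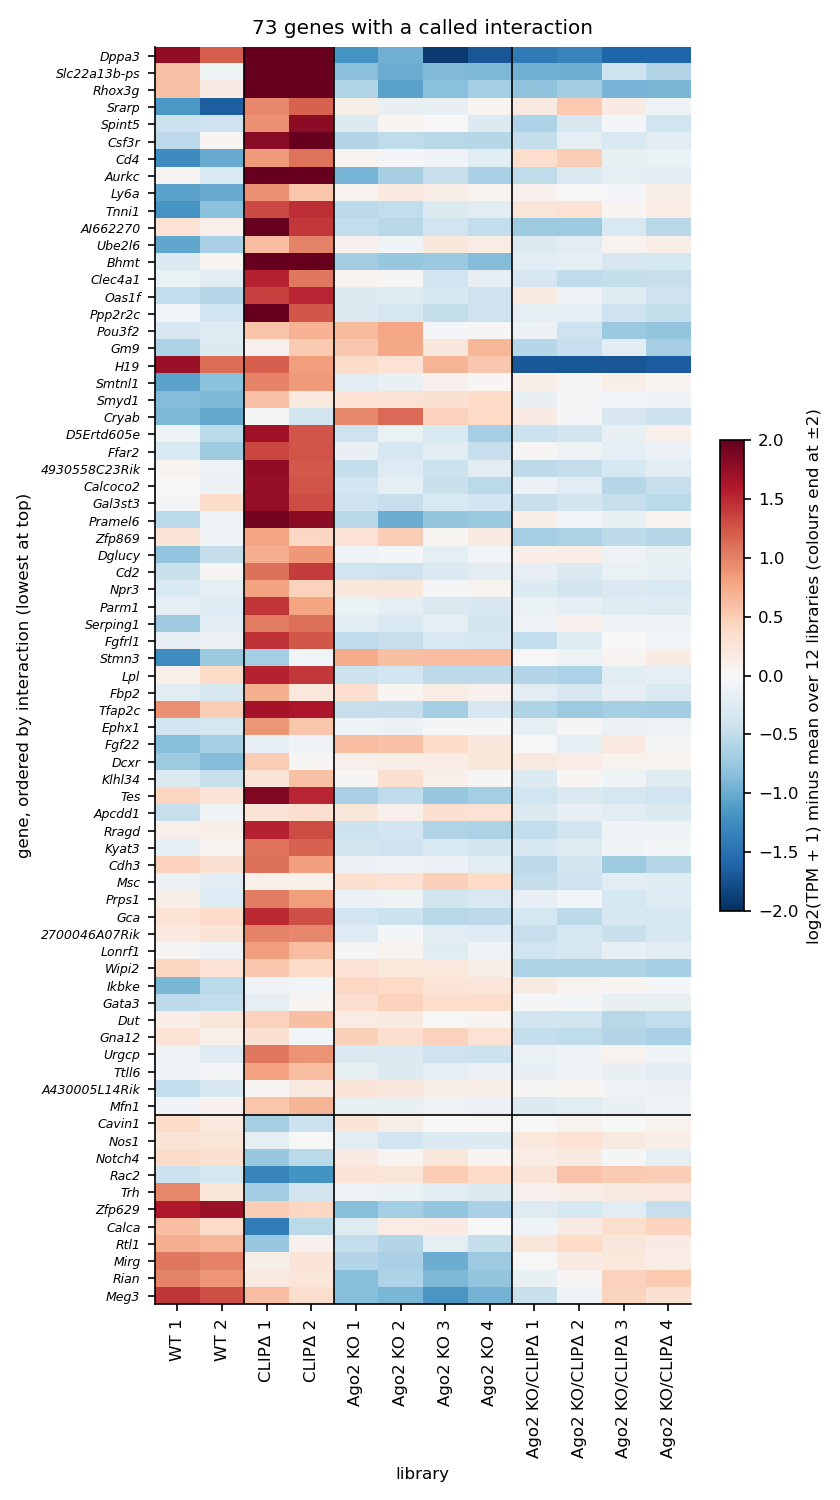
Level of each of the 73 genes in each of the 12 libraries, as log2(TPM + 1) minus the gene's mean over the libraries (colour, ending at ±2), with genes ordered by interaction from lowest (top) to highest. The 2 CLIPΔ columns are the reddest in most of the upper 62 rows, and the Ago2 KO/CLIPΔ columns are bluest for H19 and stand below Ago2 KO for genes such as Wipi2 and Zfp869.

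The lowest interaction was that of Dppa3. Dppa3 (Stella), a maternal factor that protects DNA methylation in the zygote and is patchily expressed in mESCs, was at 28.3 and 18.8 TPM in WT, 269 and 117 in CLIPΔ, 2.76, 3.39, 1.28, and 1.61 in Ago2 KO, and 2.22, 2.38, 1.81, and 1.81 in Ago2 KO/CLIPΔ. Both CLIPΔ libraries were above all others and differed from each other, and the 2 Ago2 KO genotypes overlapped at a level under that of WT. Its interaction was -2.94 (SE 0.457, adjusted p = 0.0102), from a rise of 2.89 (SE 0.373, adjusted p = 0.00176) with Ago2 and a change of -0.05 (SE 0.264, adjusted p = 0.974) without. Aurkc, the Aurora kinase of meiosis, was at 1.94 and 1.28 TPM in WT, 11.2 and 10.8 in CLIPΔ, 0.489 to 1.04 in Ago2 KO, and 0.984 to 1.47 in Ago2 KO/CLIPΔ, and its interaction was -1.84 (SE 0.212, adjusted p = 0.00199). The CLIPΔ libraries again stood alone.

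Pramel6, a Prame family gene of early embryos that favours the naive state, rose in both backgrounds and by less without Ago2. It was at 12.02 and 16.8 TPM in WT, 70.3 and 65.4 in CLIPΔ, 11.8, 8.53, 10.01, and 10.3 in Ago2 KO, and 19.7, 17.3, 16.1, and 18.7 in Ago2 KO/CLIPΔ. Neither pair of genotypes overlapped, the change was 2.18 (SE 0.168) with Ago2 and 0.77 (SE 0.119) without, and the interaction was -1.41 (SE 0.206, adjusted p = 0.00764). Its neighbour Pramel7 rose by 1.41 with Ago2 (adjusted p = 0.0124) and changed by 0.12 without (adjusted p = 0.868), with an interaction of -1.29 that did not pass (adjusted p = 0.109). Rhox3g, of the X-linked Rhox homeobox cluster, and the pseudogene Slc22a13b-ps had interactions of -2.57 (SE 0.340, adjusted p = 0.00527) and -2.62 (SE 0.367, adjusted p = 0.00639). Both have near-identical relatives between which reads could be split, so their values are uncertain.

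The germ line list held no called interaction (0 of 13 by limma, 1 with an unadjusted p under 0.05, median 0.07), where the share of 0.647% over all genes would give fewer than 1. Named genes known from blood cells went both ways: those that follow were lower, and Rac2, described further below, was higher (interaction 0.97). They were grouped after their values were seen, and no list of such genes was counted. Ly6a (Sca-1), a surface protein of blood progenitors, was at 109 and 113 TPM in WT, 432 and 338 in CLIPΔ, 242, 264, 251, and 237 in Ago2 KO, and 245, 230, 225, and 253 in Ago2 KO/CLIPΔ. WT was lowest and CLIPΔ highest without overlap, and both Ago2 KO genotypes shared a level between them. The change was 1.77 (SE 0.117, adjusted p = 2e-05) with Ago2 and -0.06 (SE 0.0829, adjusted p = 0.861) without, and the interaction, -1.83 (SE 0.144, adjusted p = 0.000347), had the lowest p of all genes. Csf3r, the receptor of granulocyte colony-stimulating factor, had a mean of 0.732 TPM in WT and 6.80 TPM in CLIPΔ. The means were 0.370 and 0.648 TPM in the 2 Ago2 KO genotypes (interaction -1.93, SE 0.218, adjusted p = 0.00199). These 2 genotypes did not overlap (change 0.26, adjusted p = 0.485), at levels where the log2(TPM + 1) scale understates a change. Cd4, the T cell co-receptor, went from 0.410 and 0.669 TPM in WT to 5.06 and 6.12 TPM in CLIPΔ, and ranged from 1.91 to 3.73 TPM over the 8 libraries without Ago2 (interaction -1.90, SE 0.263, adjusted p = 0.00625). Clec4a1, a C-type lectin of myeloid cells, and Oas1f, of the interferon-induced oligoadenylate synthetase family, had interactions of -1.81 (SE 0.222, adjusted p = 0.00311) and -1.80 (SE 0.212, adjusted p = 0.00222). Ube2l6, which conjugates the interferon-induced modifier ISG15, is described with its neighbours.

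Tnni1, the troponin I of slow muscle, was among the 3 genes that rose in both backgrounds, with Bhmt and Pramel6. It was at 0.995 and 1.57 TPM in WT, 10.2 and 11.6 in CLIPΔ, 2.16 to 2.88 in Ago2 KO, and 3.64 to 4.55 in Ago2 KO/CLIPΔ. The rise was 2.39 (SE 0.160, adjusted p = 2e-05) with Ago2 and 0.56 (SE 0.113, adjusted p = 0.0445) without, without overlap in either case, and the interaction was -1.83 (SE 0.196, adjusted p = 0.00139). Srarp, a regulator bound to steroid receptors, rose from 2.45 and 1.43 TPM in WT to 13.9 and 16.2 TPM in CLIPΔ, and lay between 5.84 and 9.94 TPM in the 8 libraries without Ago2, where the 2 genotypes overlapped (interaction -2.24, SE 0.256, adjusted p = 0.00199).

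Bhmt, which methylates homocysteine from betaine, was at 3.59 and 4.69 TPM in WT, 24.2 and 24.4 in CLIPΔ, 2.43, 2.28, 2.31, and 2.03 in Ago2 KO, and 3.77, 3.87, 3.39, and 3.33 in Ago2 KO/CLIPΔ. It rose by 2.31 (SE 0.131, adjusted p = 9.6e-06) with Ago2 and by 0.49 (SE 0.0926, adjusted p = 0.0315) without, so that the direction was shared and the size was not (interaction -1.81, SE 0.160, adjusted p = 0.000658). Ppp2r2c, a regulatory subunit of the phosphatase PP2A, went from 4.16 and 3.06 TPM to 20.4 and 11.8 TPM with Ago2, and ranged from 2.85 to 3.68 TPM without Ago2 (interaction -1.80, SE 0.263, adjusted p = 0.00764). Fgfrl1, a fibroblast growth factor receptor that lacks a kinase domain, went from 9.15 and 9.47 TPM to 29.8 and 26.0 TPM, and from 6.95 to 8.21 TPM in Ago2 KO to 7.07 to 10.2 TPM in Ago2 KO/CLIPΔ (interaction -1.29, SE 0.195, adjusted p = 0.00893). AI662270 had an interaction of -1.83 (SE 0.320, adjusted p = 0.0215), with 39.2 and 18.5 TPM in the 2 CLIPΔ libraries. It passed in 15 of the 27 alternative fits given below.

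**Figure D3:**
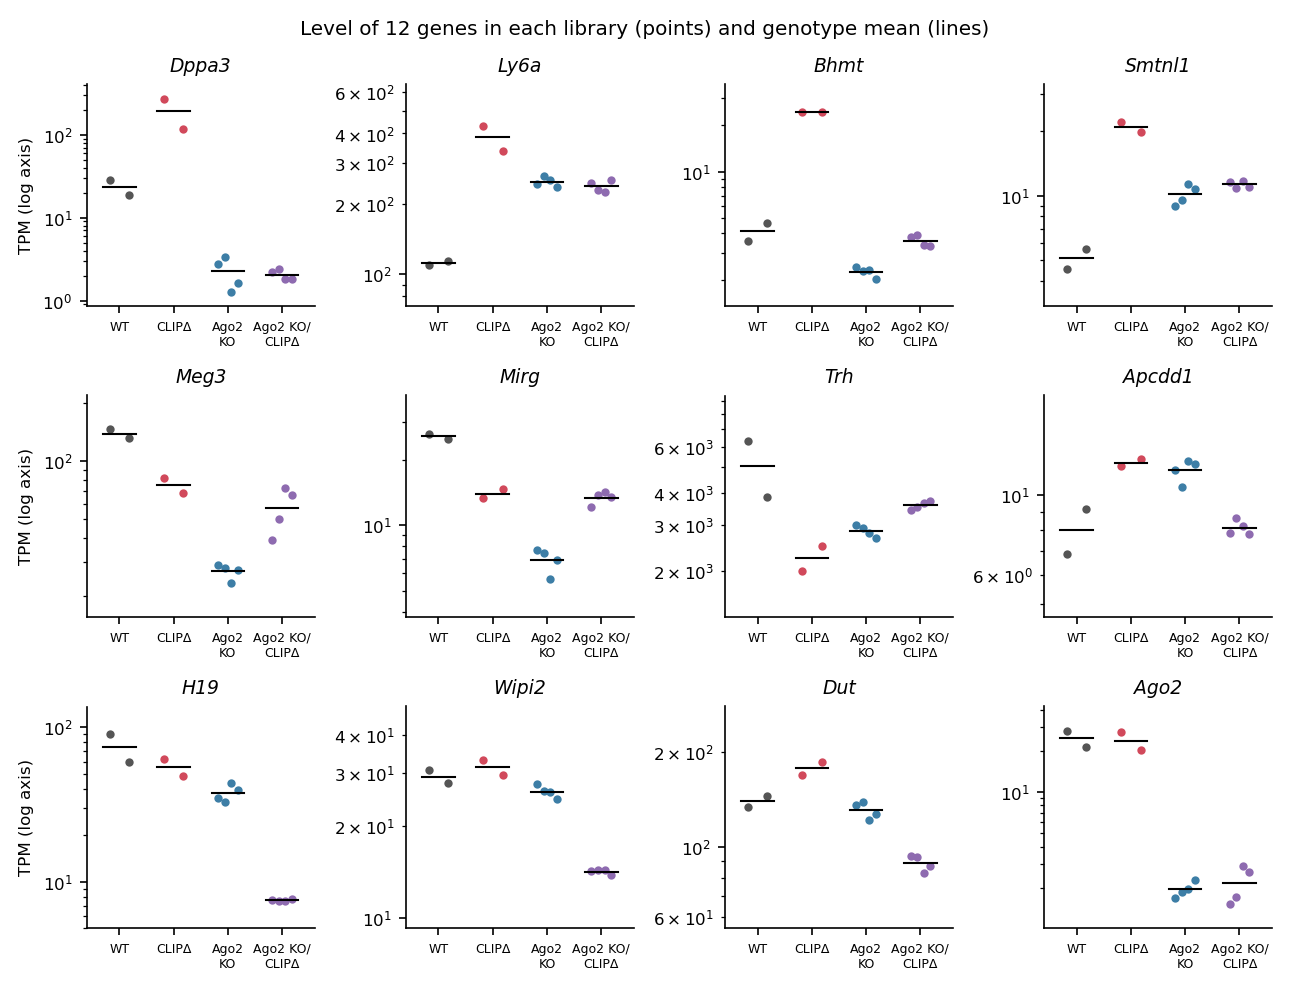
TPM of 12 genes in each library (points, log axis that does not start at 0) with the mean of each genotype (lines). Ago2 itself is last. Dppa3, Ly6a, Bhmt, and Smtnl1 are highest in CLIPΔ. Meg3 and Mirg are lower in CLIPΔ than in WT and higher in Ago2 KO/CLIPΔ than in Ago2 KO. For Meg3 the former difference did not pass in the main fit. Apcdd1 has the opposite order, and H19, Wipi2, and Dut are lowest in Ago2 KO/CLIPΔ.

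Changes of opposite sign were present in 42 of the 73 genes, and 2 of them passed the test in both backgrounds, Mirg and Apcdd1. In 36 genes 1 of the 2 changes passed, and in 4 neither did. The number of genes that passed all 3 tests with opposite signs was 4 with the replicate number as 1 block, 8 with separate terms for libraries 1 and 2 against 3 and 4 in each Ago2 KO genotype, 10 with 1 such term for both genotypes, and 37 with the number as a block within background. Apcdd1, a membrane protein that inhibits Wnt signalling, was at 6.88 and 9.14 TPM in WT, 12.04 and 12.6 in CLIPΔ, 11.7, 10.5, 12.5, and 12.2 in Ago2 KO, and 7.87, 8.63, 8.21, and 7.81 in Ago2 KO/CLIPΔ. Cells with 1 of the 2 deletions were thus higher than cells with none or both. It rose by 0.57 (SE 0.134, adjusted p = 0.0492) with Ago2 and fell by 0.48 (SE 0.0948, adjusted p = 0.0414) without, both close to the threshold, and the interaction was -1.05 (SE 0.164, adjusted p = 0.0102).

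Mirg, which reversed in the other direction, lies in the imprinted Dlk1–Dio3 domain of chromosome 12, whose maternal copy makes the long noncoding RNAs Meg3, Rian, and Mirg, the last 2 being hosts of small RNAs, and whose paternal copy makes the coding genes Dlk1, Rtl1, and Dio3. Mirg (chr12:109729764-109749460) was at 26.4 and 25.1 TPM in WT, 13.3 and 14.7 in CLIPΔ, 7.72, 7.41, 5.64, and 6.93 in Ago2 KO, and 12.2, 13.7, 14.2, and 13.5 in Ago2 KO/CLIPΔ. The 2 genotypes with the deletion shared a level, WT lay above it and Ago2 KO below it, with no overlap in either background. Mirg fell by 0.84 (SE 0.138, adjusted p = 0.00847) with Ago2 and rose by 0.87 (SE 0.0979, adjusted p = 0.00215) without, and the interaction was 1.71 (SE 0.169, adjusted p = 0.000759).

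Meg3 (chr12:109541001-109571726) was at 147 and 132 TPM in WT, 82.3 and 68.7 in CLIPΔ, 29.1, 27.9, 23.3, and 27.3 in Ago2 KO, and 39.3, 49.99, 73.1, and 66.7 in Ago2 KO/CLIPΔ. Its interaction, 1.90 (SE 0.289, adjusted p = 0.00896), was the highest among the named genes, from -0.88 (SE 0.236, adjusted p = 0.0922, 0.0478 with the number within background as a block, and 0.0616 with the set term) with Ago2 and a rise of 1.03 (SE 0.167, adjusted p = 0.0158) without. In Ago2 KO/CLIPΔ, libraries 1 and 2 were lower than libraries 3 and 4 and still above all 4 Ago2 KO libraries. Rian (chr12:109603940-109661716) was at 36.7 and 33.8 TPM in WT, 20.3 and 21.4 in CLIPΔ, 9.19 to 11.4 in Ago2 KO, and 16.1 to 26.3 in Ago2 KO/CLIPΔ, with an interaction of 1.73 (SE 0.245, adjusted p = 0.00655). Its change with Ago2 was -0.73 (adjusted p = 0.101, 0.0452 with that block, and 0.0567 with the set term), and it rose by 1.00 without (adjusted p = 0.00826).

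Rtl1 (chr12:109589193-109600330, minus strand), a retrotransposon-derived gene with an antisense transcript from the maternal copy, was at 6.12 and 5.83 TPM in WT, 1.57 and 3.60 in CLIPΔ, 1.87 to 2.81 in Ago2 KO, and 3.82 to 4.68 in Ago2 KO/CLIPΔ. Its interaction was 1.70 (SE 0.276, adjusted p = 0.0123), with a fall of 1.02 (adjusted p = 0.0385) with Ago2 and 0.68 (adjusted p = 0.0784, 0.0321 with the block, and 0.0566 with the set term) without. The sources used here do not say that counting used strand, so reads of Rtl1 and of its antisense transcript cannot be told apart. All 4 genes had opposite signs in the backgrounds. With the set term, as without it, Mirg alone among them passed in both. With the number within background as a block, all 4 passed in both, at adjusted p by limma of at most 0.0478. The set term, unlike that block, leaves out the numbers of the WT and CLIPΔ libraries. The other tested genes of the domain did not move with them: the interaction was 0.29 (adjusted p = 0.901) for Dlk1, 0.10 (adjusted p = 0.971) for Dio3os, and -0.88 (adjusted p = 0.775) for Dio3.

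H19, the maternal noncoding RNA of the imprinted Igf2 domain, had the largest change without Ago2 of any called gene. It was at 91.0 and 59.2 TPM in WT, 62.3 and 48.3 in CLIPΔ, 34.7, 33.0, 43.3, and 39.3 in Ago2 KO, and 7.57, 7.56, 7.50, and 7.72 in Ago2 KO/CLIPΔ. WT and CLIPΔ overlapped, and the 4 Ago2 KO/CLIPΔ libraries were nearly equal and far below all others. The change was -0.41 (SE 0.190, adjusted p = 0.390) with Ago2 and a fall of 2.16 (SE 0.135, adjusted p = 2.77e-05) without, and the interaction was -1.75 (SE 0.233, adjusted p = 0.00527). Of the 33 tested imprinted genes, 4 had a higher and 1 a lower interaction that passed, beside 0.647% of all genes, and the median interaction of the list was 0.10. The 5 were H19 and the neighbours Meg3, Rian, Mirg, and Rtl1, which share 1 locus.

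Outside the Dlk1–Dio3 domain, 7 genes had a higher interaction. Trh, the precursor of thyrotropin-releasing hormone and one of the most abundant mRNAs here, was at 6296 and 3833 TPM in WT, 1990 and 2495 in CLIPΔ, 3001, 2935, 2794, and 2675 in Ago2 KO, and 3417, 3530, 3651, and 3715 in Ago2 KO/CLIPΔ. It fell by 1.14 (SE 0.187, adjusted p = 0.00832) with Ago2, and its change of 0.33 (SE 0.133, adjusted p = 0.372) without did not pass, although the 2 groups did not overlap (interaction 1.47, SE 0.230, adjusted p = 0.0102). Calca, which encodes calcitonin and its related peptide, was at 13.8 and 11.8 TPM in WT and 2.73 and 5.75 in CLIPΔ. It was at 7.23 to 12.4 TPM in the libraries without Ago2 (interaction 1.66, SE 0.314, adjusted p = 0.0357). The interaction passed in 13 of the 27 alternative fits given below. Zfp629, a zinc finger gene, fell from 5.72 and 6.32 TPM to 2.15 and 1.96 TPM with Ago2, while Ago2 KO lay at 0.232 to 0.418 TPM and Ago2 KO/CLIPΔ at 0.619 to 0.898 TPM (interaction 1.62, SE 0.153, adjusted p = 0.000716). Its change of 0.42 without Ago2 did not pass (adjusted p = 0.0540), but passed with the block (0.0350) and with the set term (0.0316).

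The interactions of the other 4 genes were smaller and passed in 9 to 19 of the 27 alternative fits given below. Rac2, a GTPase of blood cells, fell from 4.39 and 4.70 TPM to 1.92 and 2.16 TPM with Ago2 and was at 7.61 to 9.80 TPM in the 8 libraries without Ago2 (interaction 0.97, SE 0.168, adjusted p = 0.0198). Notch4, a Notch receptor of endothelium, was close to the threshold (interaction 0.89, SE 0.177, adjusted p = 0.0480), with 8.48 and 8.25 TPM in WT and 3.34 and 4.09 in CLIPΔ. Cavin1, a coat protein of caveolae, fell from 131 and 117 TPM to 64.0 and 75.9 TPM with Ago2 and stayed within 101 to 122 TPM without Ago2 (interaction 0.76, SE 0.140, adjusted p = 0.0316). Nos1, the neuronal nitric oxide synthase, was the only one of the 4 whose call came from the cells without Ago2, where it went from 7.37 to 8.39 TPM up to 11.0 to 12.3 TPM (interaction 0.83, SE 0.138, adjusted p = 0.0161).

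Some called genes lay next to each other. Of the 73 genes, 17 (23.3%) had another called gene within 1 Mb, beside 1369 of the 11212 tested genes with a position (12.2%). The loci below were chosen after their values were seen and are given without a test of their own. Serping1, Ube2l6, and Smtnl1 are consecutive tested genes on chromosome 2 (chr2:84765387-84822652). Smtnl1, a smoothelin-like muscle protein, was at 4.55 and 5.61 TPM in WT, 22.1 and 19.9 in CLIPΔ, 8.93, 9.55, 11.4, and 10.8 in Ago2 KO, and 11.6, 10.9, 11.8, and 11.0 in Ago2 KO/CLIPΔ (interaction -1.71, SE 0.166, adjusted p = 0.000716). Ube2l6 was at 3.51 and 4.88 TPM in WT, 13.1 and 17.4 in CLIPΔ, 7.72 to 9.83 in Ago2 KO, and 6.65 to 9.06 in Ago2 KO/CLIPΔ (interaction -1.82, SE 0.234, adjusted p = 0.00471). Serping1, the inhibitor of the complement protease C1, had an interaction of -1.30 (SE 0.189, adjusted p = 0.00763). The 3 genes rose by 1.55 to 1.86 with Ago2, while Timm10 on one side changed by -0.01 and Clp1 and Ypel4 on the other by 0.25 and 0.68, none of which passed. Of the 9 tested genes from Serping1 to Pramel6 (chr2:84765387-87510872), 5 rose with Ago2 and 4 had a called interaction, beside 1.46% and 0.647% of all genes. The median change of the 9 with Ago2 was 1.42, but they did not form a continuous run. Timm10, Slc43a1, Ssrp1, and Tnks1bp1, between Smtnl1 and Pramel7, changed by -0.009, 0.03, -0.05, and -0.225 with Ago2, none of which passed.

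On chromosome 5, the 9 tested genes from Lfng to Slc29a4 (chr5:140607320-142722490) were all lower in Ago2 KO/CLIPΔ than in Ago2 KO. Their changes without Ago2 ran from -1.14 to -0.71 with a median of -0.83, and 7 of the 9 passed, beside 0.602% of all genes that fell without Ago2. The median change of the 9 with Ago2 was -0.18, and 1, Ttyh3, passed there too. Of the 11049 windows of 9 consecutive tested genes in the genome, this one and the overlapping window from Ttyh3 to Tnrc18 shared the lowest median without Ago2. Wipi2, which acts in the making of autophagosomes, was at 30.7 and 27.7 TPM in WT, 33.2 and 29.5 in CLIPΔ, 27.6, 26.1, 26.0, and 24.6 in Ago2 KO, and 14.2, 14.3, 14.3, and 13.8 in Ago2 KO/CLIPΔ, a ratio of means of 0.544 (interaction -0.93, SE 0.125, adjusted p = 0.00529). Gna12, a G protein subunit, had the same shape, with a ratio of 0.461 (interaction -0.88, SE 0.172, adjusted p = 0.0463). It passed in 9 of the 27 alternative fits given below. Slc29a4 and Brat1 had ratios of 0.445 and 0.483 with interactions that did not pass (adjusted p = 0.0603 and 0.214). With the block these were 0.0329 and 0.0120, and with the set term 0.0438 and 0.126. In all 9 genes the 4 Ago2 KO/CLIPΔ libraries lay below the 4 Ago2 KO libraries. Over all 11287 genes, 1509 had no overlap of these genotypes in either direction, and the stretch was chosen after its values were seen. The nearest tested genes outside the stretch, Chst12 and Tnrc18, changed by -0.12 and -0.28 and did not pass. DNA copy number was not measured, so a change of these genes with the deletion and with the clone cannot be told apart.

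**Figure D4:**
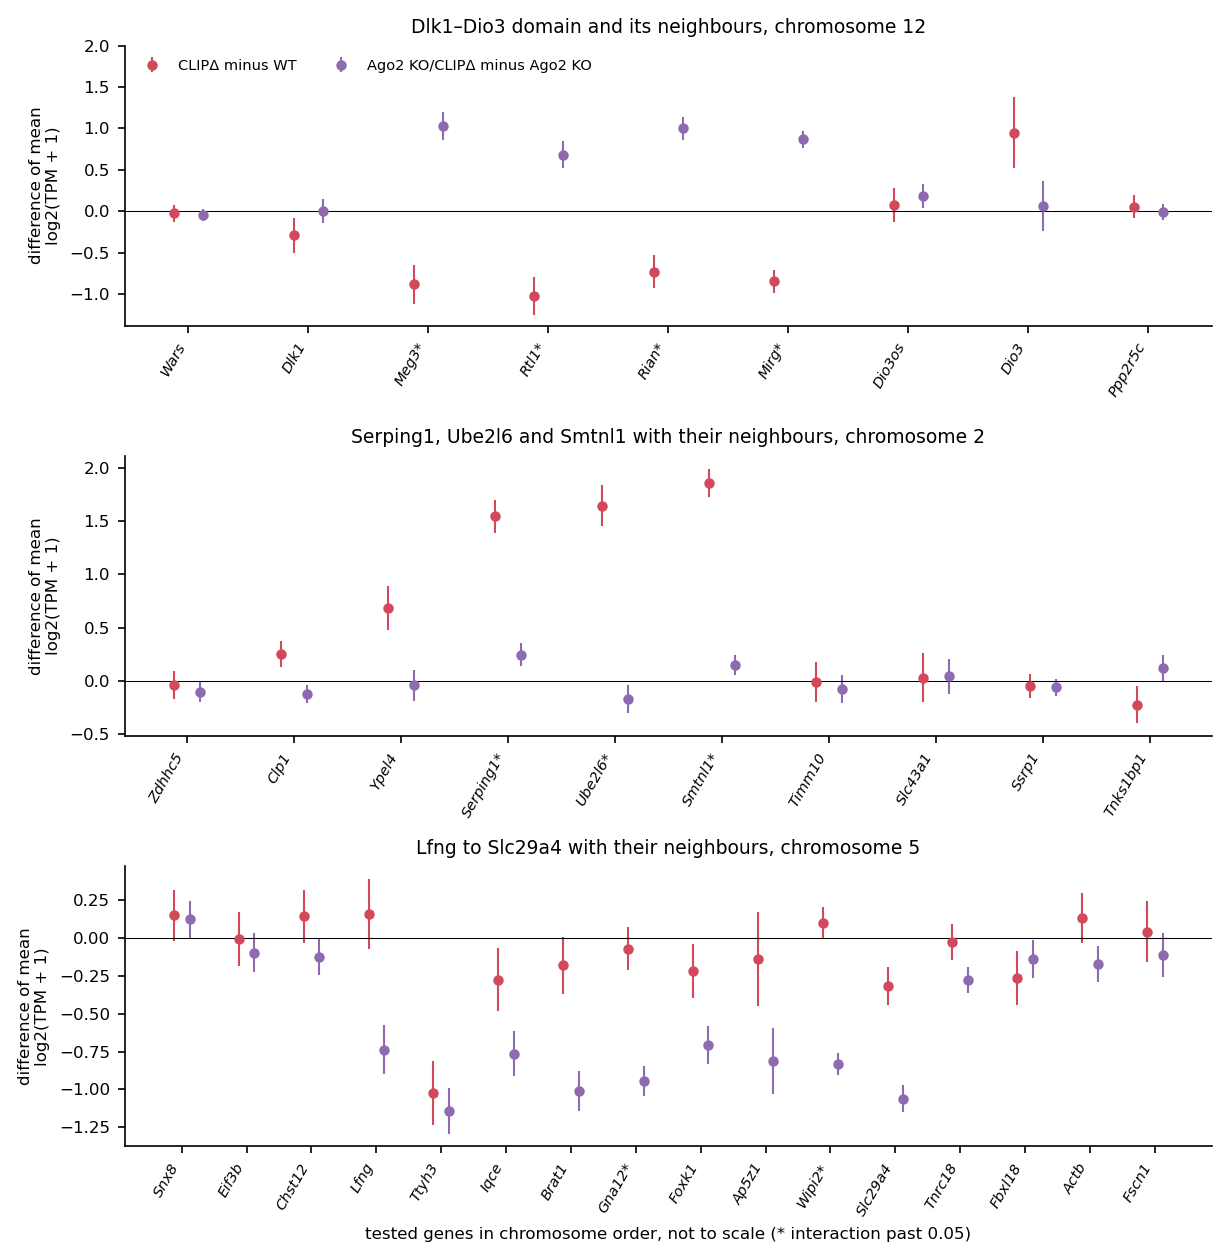
Change with the deletion with Ago2 (red) and without (purple), as difference of mean log2(TPM + 1) ± SE, for tested genes in their order along 3 stretches of chromosome; stars mark an interaction that passed. Meg3, Rtl1, Rian, and Mirg lie on opposite sides of 0 in the 2 backgrounds, Serping1, Ube2l6, and Smtnl1 are at 1.55 to 1.86 with Ago2, and the genes from Lfng to Slc29a4 lie between -1.14 and -0.71 without Ago2.

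Besides H19, Wipi2, and Gna12, genes that fell only without Ago2 included Dut and Msc, named here after their values were seen. Dut, the dUTPase that keeps uracil out of DNA, was at 134 and 145 TPM in WT, 169 and 186 in CLIPΔ, 135, 139, 122, and 128 in Ago2 KO, and 93.6, 92.9, 82.9, and 86.8 in Ago2 KO/CLIPΔ. Neither background had overlap, and the signs differed, with 0.35 (SE 0.103, adjusted p = 0.131) with Ago2 and a fall of 0.55 (SE 0.0727, adjusted p = 0.00560) without. The change with Ago2 passed with the block (adjusted p = 0.0127) and with the set term (0.0381). Msc, a transcription factor of muscle and B cells, changed by 0.28 (adjusted p = 0.271, 0.0452 with the block, and 0.0758 with the set term) with Ago2 and fell by 0.71 (adjusted p = 0.00198) without.

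The miRNA pathway was read through lists of its genes and targets. The mature sequences, from RefSeq (GRCm38.p6), are shown with the seed, bases 2 to 8, in capitals, because the lists follow these seeds; the last 3 share one.
let-7a-5p: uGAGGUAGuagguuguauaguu
miR-291a-3p: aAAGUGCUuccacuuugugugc
miR-294-3p: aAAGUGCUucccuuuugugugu
miR-302b-3p: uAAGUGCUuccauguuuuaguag
The let-7 site searched was CTACCTCA and the site of the other seed was AGCACTTA, on the sense strand of the longest annotated 3'UTR of each gene. Of the 10831 tested genes with a 3'UTR, 461 held the former, and 2 of them (0.434%) had a called interaction, Parm1 and Wipi2, beside 0.591% of all 10831. Their median change was -0.082 with Ago2 and -0.036 without, beside -0.051 and -0.047 over all genes with a 3'UTR. The second site was in 380 genes, of which 2 (0.526%) were called, Apcdd1 and Cdh3, with medians of -0.054 and -0.032. The 3'UTRs with a site were longer, with medians of 2566 and 2841 bases beside 1258 for all.

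The list of 28 known let-7 targets had a median change of -0.13 with Ago2 and -0.04 without, beside -0.052 and -0.045 over all genes. None had a called interaction by limma, where the share of 0.647% over all genes would give fewer than 1, 2 had an unadjusted p under 0.05, and 1, Cdk6, a cyclin-dependent kinase, fell with Ago2 (by 0.61, adjusted p = 0.0264), with -0.01 without and an interaction of 0.60 that did not pass (adjusted p = 0.142). Lin28a, the RNA-binding protein that blocks let-7 maturation, was at 108 and 104 TPM in WT, 44.6 and 72.1 in CLIPΔ, 122, 112, 79.0, and 74.4 in Ago2 KO, and 102, 95.0, 68.9, and 74.0 in Ago2 KO/CLIPΔ. The CLIPΔ libraries were below WT without overlap and the Ago2 KO genotypes overlapped, but the changes of -0.88 (SE 0.276, adjusted p = 0.149) and -0.17 (SE 0.195, adjusted p = 0.823) and the interaction of 0.71 (SE 0.338, adjusted p = 0.643) did not pass. With the block within background, the change with Ago2 passed (adjusted p = 0.00866, and 0.0192 with the set term) and the interaction did not (adjusted p = 0.0775, and 0.180 with the set term).

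Trim71 was at 34.9 TPM in both WT libraries, 27.1 and 27.6 in CLIPΔ, 22.5 to 28.5 in Ago2 KO, and 23.3 to 27.3 in Ago2 KO/CLIPΔ, with an interaction of 0.31 (SE 0.145, adjusted p = 0.643). Hmga2, a chromatin protein, and Igf2bp1, an mRNA-binding protein, had interactions of -0.01 (SE 0.184, adjusted p = 0.996) and -0.01 (SE 0.206, adjusted p = 0.996).

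Of the Argonautes other than Ago2, Ago1 ranged from 55.9 to 67.9 TPM in cells with Ago2 and from 36.8 to 49.6 TPM in cells without, with an interaction of 0.07 (SE 0.162, adjusted p = 0.966). Ago3, at 0.413 to 2.06 TPM, and Ago4, at 0.0711 to 0.642 TPM, were under the minimum level, as was Lin28b, at 0.108 to 0.881 TPM. No gene of the silencing complex list (0 of 5 tested) or of the miRNA processing list (0 of 11) had a called interaction by limma, each list holding 1 gene with an unadjusted p under 0.05. At the share of 0.647% over all genes, lists of this size would hold fewer than 1 called gene, and the median interactions were 0.15 and 0.26. The value was 0.35 (adjusted p = 0.547) for Tnrc6c, a GW182 protein of the complex, and 0.56 (adjusted p = 0.302) for Dicer1, the RNase that makes mature miRNAs, both named after their values were seen.

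In the list of naive pluripotency genes, 1 of 28 passed, Dppa3, beside 0.647% of all genes, and the median interaction was 0.058. Nanog was at 1204 and 749 TPM in WT, 1069 and 939 in CLIPΔ, 581 to 804 in the libraries without Ago2, and had an interaction of -0.14 (SE 0.275, adjusted p = 0.958). Pou5f1 (Oct4) ranged from 2313 to 3262 TPM over the 12 libraries (interaction 0.08, SE 0.122, adjusted p = 0.942), and Esrrb, an orphan nuclear receptor of naive cells, had an interaction of 0.15 (SE 0.154, adjusted p = 0.914). Klf4 fell by 0.57 with Ago2 (adjusted p = 0.0183) and changed by -0.24 without (adjusted p = 0.228), and its interaction of 0.34 (SE 0.132) did not pass (adjusted p = 0.500). Sox2 is not in the table. Cdkn1a (p21), a cell cycle inhibitor and Trim71 target, was at 471 and 387 TPM in WT, 624 and 433 in CLIPΔ, 223 to 255 in Ago2 KO, and 251 to 273 in Ago2 KO/CLIPΔ (interaction -0.17, SE 0.190, adjusted p = 0.929).

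**Figure D5:**
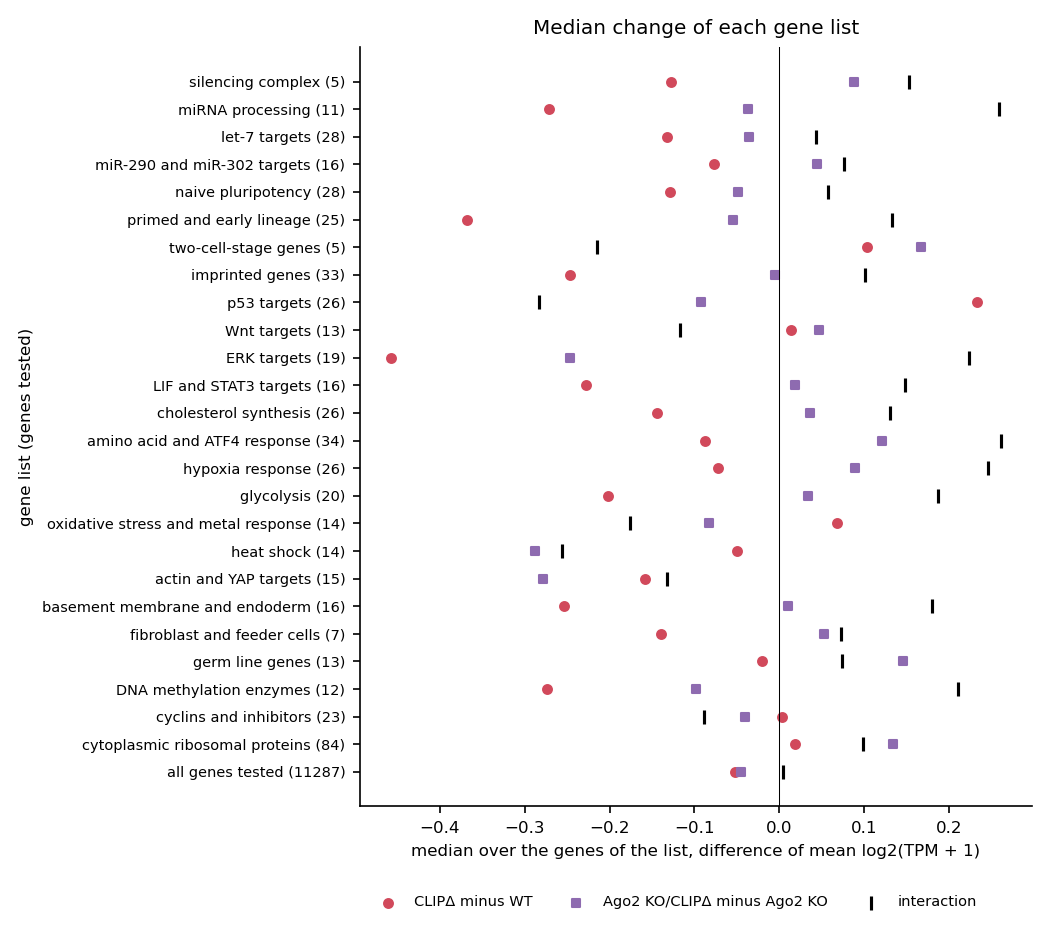
Median change over the tested genes of each list (number in parentheses) with Ago2 (red circles), without Ago2 (purple squares), and for the interaction (black bars), as differences of mean log2(TPM + 1); all genes tested are in the bottom row. The medians of the interaction range from -0.28 (p53 targets) to 0.26 (amino acid and ATF4 response), and few single genes of these lists passed.

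Over the 25 lists with a tested gene, 6 held a called interaction and 19 held none. The 6 were the miR-290 and miR-302 targets (Fgfrl1, 1 of 16), the naive list (Dppa3), the two-cell-stage list (Pramel6, 1 of 5), the imprinted genes (5 of 33), the Wnt targets (Apcdd1, 1 of 13), and the LIF and STAT3 targets (Pramel6, 1 of 16). The p53 targets had the lowest median interaction, -0.28, from medians of 0.23 with Ago2 and -0.09 without, and 0 of 26 passed by limma, 2 having an unadjusted p under 0.05. The highest medians belonged to the amino acid and ATF4 response genes (0.26, 0 of 34, 1 unadjusted), the miRNA processing genes (0.26), and the hypoxia genes (0.25, 0 of 26, 2 unadjusted). The 84 cytoplasmic ribosomal protein genes had a median of 0.10, and none passed, with 3 at an unadjusted p under 0.05. At the share of 0.647% over all genes, even this list, the largest, would hold fewer than 1 called gene. A list without a call is therefore not informative.

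Genes bound by Trim71 in their mature mRNA were not among the called genes. Of the 498 peaks of the CLIP-seq list, 154 lie in 3'UTRs, and 104 tested genes held one, of which 0 had a called interaction by limma and 7 an unadjusted p under 0.05, with a median of -0.014. With coding and 5'UTR peaks included there were 133 genes and again 0 calls by limma, with 8 at an unadjusted p under 0.05 (median 0.001). Intronic peaks were in 91 tested genes, of which 1 was called, Parm1, a transmembrane mucin-like gene. At the share of 0.647% over all genes, either set of bound mRNAs would hold fewer than 1 called gene.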

How the data were processed

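The 12 RNA-seq libraries were analysed from the TPM table that the authors deposited. By their methods and processing notes, reads were mapped to mm10 with HISAT2 2.1.0, assigned with HTSeq to 1 transcript per gene, the longest, and turned into TPM, so depth is unknown. Strand use is not given in the sources used here. The Trim71 CLIP peak list, as deposited, gives read counts per peak, and replicates were joined before deposit. The miRNA table was not used here.

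No label explains the column code d3, which was taken for CLIPΔ by elimination among the 4 genotypes. Values were log2(TPM + 1), and genes averaging under 1 TPM over the libraries were left out. Means of the 4 genotypes were fitted in limma 3.58.1 (R 4.3.3; trended eBayes, all 12 libraries sharing 1 estimate of spread), and every adjusted p is its moderated test with Benjamini-Hochberg adjustment over 11287 genes, called at 0.05. The fit was tested on simulated data with independent noise and 1 spread per gene. The simulation lacked the unequal spread of the genotypes and the sets of Ago2 KO libraries, so it cannot show how calls behave under them. Named are the 15 lowest and 15 highest called interactions (of which 11 exist) of genes with at least 5 TPM in a genotype, genes reversed in both backgrounds, 15 fixed genes, and called members of lists; any other gene was chosen after its values were seen. The members, lists and tests were chosen with earlier results of these data known.

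Deviations of same-numbered libraries from their genotype means correlated at 0.71 for WT with CLIPΔ, where 2 pairs give 1 value, and at 0.32 to 0.43 for the 4 pairs without Ago2. Differently numbered libraries of the same set (1 and 2, or 3 and 4) correlated at 0.33 to 0.47, so without Ago2 the numbers show these sets and not single pairs. Values with the number as a block are therefore given beside those with a term for the sets. Across backgrounds the correlations were -0.24 to 0.24 over all pairs of libraries. The 27 alternatives tried included 3 added after seeing the data. Coordinates are GRCm38 with GENCODE annotation, which placed 11212 of the genes tested.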

Additional observations from a re-analysis of the deposited data

Results flagged for a closer look

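The difference between the backgrounds itself passed the test in 73 genes, and the named ones are given here as interactions (log2, change without Ago2 minus change with Ago2). Among the lower ones, the interaction was -2.94 for Dppa3, -2.62 for Slc22a13b-ps, -2.57 for Rhox3g, -2.24 for Srarp, -1.93 for Csf3r, -1.90 for Cd4, and -1.84 for Aurkc. It was -1.83 for Ly6a, for Tnni1, and for AI662270, -1.82 for Ube2l6, -1.81 for Bhmt and for Clec4a1, -1.80 for Oas1f and for Ppp2r2c, -1.75 for H19, -1.41 for Pramel6, -1.29 for Fgfrl1, and -1.05 for Apcdd1. Among the higher ones, it was 1.90 for Meg3, 1.73 for Rian, 1.71 for Mirg, 1.70 for Rtl1, 1.66 for Calca, 1.62 for Zfp629, and 1.47 for Trh. The remaining 4 were Rac2 at 0.97, Notch4 at 0.89, Nos1 at 0.83, and Cavin1 at 0.76.

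Relative to the narrow spread of its genotype, a single library stood apart from the other 3 for 2 of the named genes. About 1 in 20 groups does so by chance. Lin28b was at 0.108 TPM in Ago2 KO/CLIPΔ library 2, beside 0.151 to 0.157 TPM in the other 3, all under the minimum level. Pou5f1 was at 3178 TPM in Ago2 KO/CLIPΔ library 4, beside 3084 to 3095 TPM, a small difference in level. Neither gene had a called interaction.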

How the results depend on the processing

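The 73 genes kept the direction of their interaction under each of the 27 alternatives that tested them, 44 of 44 where a mean of 5 TPM was required. The alternatives reuse libraries from which the 73 were called, so a kept direction is no independent support. Bhmt, Ly6a, Mirg, Rian, and Smtnl1 passed in 26 of 27 and Ttll6 in 8 of the 26 that tested it. Several genes described above also passed in fewer. Gna12 and Notch4 passed in 9 of 27, Calca and Cavin1 in 13, AI662270 in 15, Rac2 in 18, and Nos1 in 19. The counts moved more. Without a filter, 168 interactions passed (146 lower, 22 higher), with 510 changes with Ago2 and 5 reversed genes. With a mean of 5 TPM the interactions were 39 (31 lower), with 145 changes with Ago2 and 1 reversed gene, and robust eBayes also gave 1 reversed gene. With array weights they were 26 (22 lower, 4 higher), beside 37 changes with Ago2 and 1036 without. With Ago2 KO libraries 1 and 2 only, 0 interactions passed by limma (0 lower, 0 higher, 804 unadjusted), with 92 changes with Ago2, 0 without (1436 unadjusted), and 0 reversed. With libraries 3 and 4 only there were 12 (7 lower, 5 higher), 109 with Ago2, 0 without (1362 unadjusted), and 0 reversed. The cause of these moves was not tested, beyond the fewer genes or libraries that some of these settings leave.

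The replicate number as 1 block over all libraries gave 83 interactions, 180 changes without Ago2, and 4 reversed genes. As a block within background, a pairing by number that the Ago2 KO libraries bear out only as far as libraries 1 and 2 against 3 and 4, it gave 329 interactions (223 lower, 106 higher), 960 changes with Ago2, 758 without, and 37 reversed genes. A term that sets libraries 1 and 2 of the Ago2 KO genotypes against 3 and 4 gave 128 (99 lower, 29 higher), 424 with Ago2, 301 without, and 10 reversed, and separate terms per genotype gave 627 with Ago2 and 8 reversed. Median centring and quantile normalization turned the split without Ago2 from 31 higher and 68 lower to 43 and 45 and to 42 and 47.

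Leaving out 1 library at a time, the interactions ranged from 51 to 144, with 43 to 103 lower and 6 to 41 higher, the highest without CLIPΔ library 2. Changes with Ago2 ranged from 105 (without CLIPΔ library 1) to 397 (without CLIPΔ library 2), with 165 and 169 without Ago2 KO libraries 2 and 4. Changes without Ago2 ranged from 21 to 161: 161 without either WT library, 21, 22, and 51 without Ago2 KO libraries 1, 2, and 3, and 61, 29, and 35 without Ago2 KO/CLIPΔ libraries 1, 3, and 4. Reversed genes ranged from 1 to 5.

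Some interactions near 0 changed sign, none of them called. Hmga2 was 0.033 with a pseudocount of 0.1, 0.056 with array weights, and 0.18 with libraries 3 and 4 only. Igf2bp1 was 0.051 with quantile normalization and 0.014 with libraries 1 and 2 only and with separate terms, where Ago1 was -0.13 and Ago2 -0.013. Over the left-out libraries the ranges were -0.023 to 0.16 for Ago1, -0.053 to 0.36 for Ago2, -0.49 to 0.20 for Nanog, -0.19 to 0.17 for Hmga2, -0.17 to 0.16 for Igf2bp1, -0.43 to 0.10 for Cdkn1a, -0.043 to 0.21 for Pou5f1, and -0.024 to 0.32 for Esrrb.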

Other observations

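Igf2, the paternally expressed partner of H19, was below the minimum level of the test. It was at 1.40 and 0.644 TPM in WT, 0.288 and 0.301 TPM in CLIPΔ, 0.843 to 1.58 TPM in Ago2 KO, and 0.385 to 0.545 TPM in Ago2 KO/CLIPΔ. Both genotypes with the CLIP deletion lay below their background without overlap, whereas H19 did so in cells without Ago2 and overlapped in cells with it.

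Among windows of 9 consecutive tested genes, the lowest median interaction was -1.29, from Serping1 to Pramel6 on chromosome 2, and the next was the stretch from Lfng to Slc29a4 on chromosome 5. Within the former, Timm10, Slc43a1, Ssrp1, and Tnks1bp1 had interactions of -0.069, 0.013, -0.013, and 0.341, none of which passed. These windows were ranked after the values were seen, and no test was made.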
